A study of Mus musculus with 4 samples.

Results

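Fat around blood vessels releases and takes up peptides and gases that set the tone of the vessel wall, and the genes for 10 of their precursors, enzymes and receptors were examined here in perivascular adipose tissue (PVAT) of the mouse femoral artery. They were *Agt*, *Ace* and *Agtr1a* of the angiotensin system, *Edn1* and *Ednrb* of the endothelin system, *Npr1* and *Npr3* for natriuretic peptides, *Adm* for adrenomedullin, *Apln* for apelin and *Cth* for hydrogen sulfide. They and the gene lists used below were picked by name, with earlier results of these data known. Of the 10, 9 had a row among the 12661 genes of the deposited table, and *Agtr1a* was not analysed here. Wild type C57BL/6 female mice, 11 weeks old and ovariectomized in both groups, underwent insertion of a 0.38 mm wire into the femoral artery or a sham operation, and the tissue outside the artery was taken 48 h later. Each group had 2 libraries. The tissue was dissected, not sorted, so it held vessels, nerve, stroma and blood-borne cells besides adipocytes, and the ovariectomy left no untreated hormonal state for comparison. The labels do not say whether the libraries came from separate mice, so the p-values measure only the spread between these libraries.

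The systems work as opposing pairs. Angiotensin and endothelin narrow vessels through peptides that are cut from inactive precursors by membrane proteases. Natriuretic peptides, adrenomedullin, apelin, nitric oxide and hydrogen sulfide mostly widen them, several through cyclic GMP or cyclic AMP in smooth muscle. Adipocytes of PVAT are a known source of angiotensinogen and of hydrogen sulfide, while the converting enzymes and many of the receptors sit on endothelium and smooth muscle.

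The deposited values are signed scores per gene and library, on a scale that behaves like a logarithm of unstated base. The centre appears to be set for each gene, but it is unstated and is not the gene's mean over these 4 libraries. The units of the scores are called deposited units below. A value above or below 0 therefore says nothing about abundance, levels cannot be ranked between genes, and depth is unknown. In all 4 libraries the column median was near 0 (-0.0062 to -0.0028), and values ran from -2.27 to 6.45. Rows were present for all 12 adipocyte markers listed for the tissue check, but without an abundance scale these rows cannot show how much of the tissue was adipocyte.

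Among the 9 genes, 7 had a lower mean after injury and 2, *Npr3* and *Apln*, a higher one. Injury and sham were compared with limma over all 12661 genes with Benjamini-Hochberg adjustment and a threshold of 0.05. *Ace* alone passed, as lower, or 1 of 9 where 3.67% of all genes were called lower. By the same test 0 of 9 were called higher, where 3.76% of all genes were. At an unadjusted p under 0.05 there were 5 of 9 (*Ace*, *Edn1*, *Npr1*, *Cth* and, as the only higher gene, *Npr3*), where 29.5% of all genes reached it in either direction. In 5 genes both injury libraries lay below both sham libraries, where 30.3% of all genes did. In *Npr3* and *Apln* both lay above, where 31.6% of all genes did. The median difference of the 9 genes was -0.34 deposited units and that of all genes was 0.0085.

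**Figure D1:**
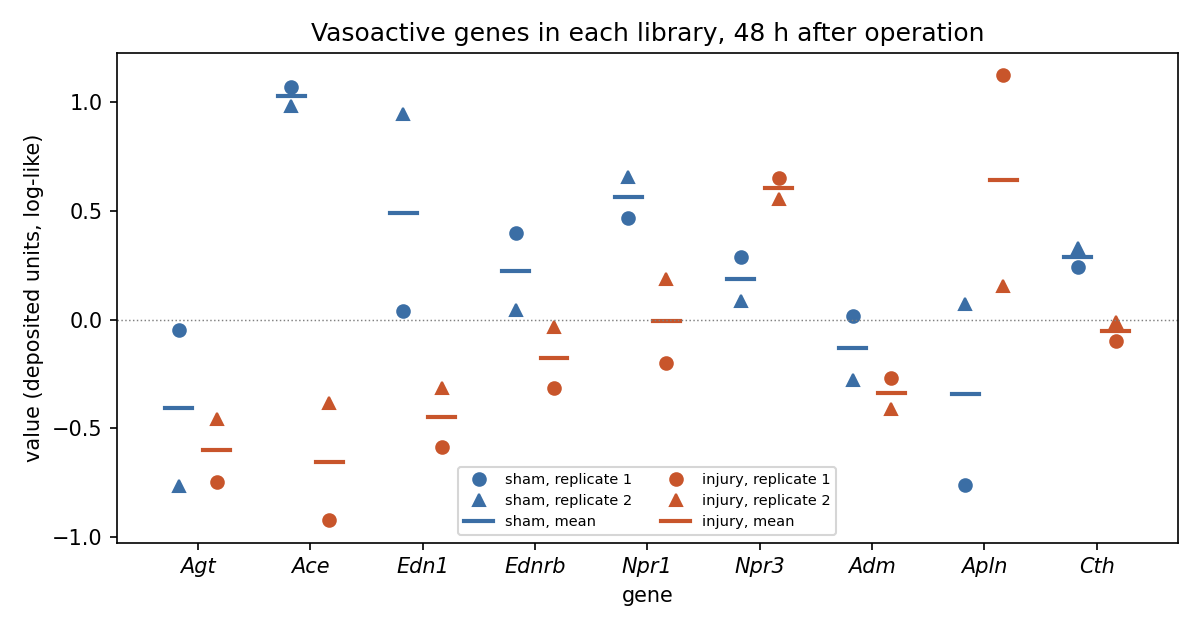
Values of the 9 vasoactive genes in each library (vertical axis, deposited units; horizontal axis, gene), with circles and triangles for replicates 1 and 2, blue for sham, orange for injury, and bars for group means. The *Ace* groups stand 1.37 units apart at their nearest points, while those of *Agt* and *Adm* overlap.

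*Ace* had the clearest difference. It encodes angiotensin-converting enzyme, the endothelial surface protease that makes angiotensin II and breaks down bradykinin. Its values were 1.07 and 0.98 in the sham libraries and -0.92 and -0.39 in the injury libraries. Both sham libraries were alike and high, and the injury libraries differed from each other by less than their distance from sham. *Ace* fell by 1.68 deposited units (standard error 0.21, 95% interval -2.21 to -1.16, adjusted p = 0.0285 from limma), and 0.577% of all genes had a lower difference. All 12 endothelial markers also had lower means after injury, and 3 were called lower, where 3.67% of all genes were. Their part in this result was not tested. In these bulk libraries fewer cells of a type and less RNA per cell cannot be told apart. Across the scaling and variance alternatives and with a block for the replicate number, the adjusted p from limma was 0.0233 to 0.0358. With a single sham library, which leaves the spread to be read from the injury pair, leaving out sham replicate 1 gave -1.64 and leaving out sham replicate 2 gave -1.73. *Ace* was then not called (adjusted p = 0.176 and 0.113 from limma), in fits that called 0 and 1 of all 12661 genes.

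The *Ace* locus lies on the plus strand of chromosome 11 from 105829259 to 105851278 (mm9, GENCODE annotation). *Gm11651*, a noncoding transcript on the minus strand, overlaps it, and was looked up after the *Ace* values were seen. *Gm11651* was at 1.16 and 0.84 after sham operation and at -0.72 and -0.51 after injury. Its difference of -1.62 (adjusted p = 0.0285 from limma) was close to that of *Ace*. The library kit keeps the strand, but the strand setting used in counting is not given in the sources used here. Neither is the handling of reads that overlap several genes. The rows of *Ace* and *Gm11651* may therefore not be independent.

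RefSeq places a start of *Ace* (GRCm38.p6, plus strand) in the window chr11:105967698-105967997, which holds 250 bases before the start and 50 from it. It is shown because *Ace* is the called gene, with matches in capitals. The motifs searched on both strands were GGGCGG (bound by Sp1 family factors), TATAA (the TATA box), ACGTG (the core of the hypoxia response element), GATAA (bound by GATA factors), TGACTCA or TGAGTCA (AP-1) and the CArG box (serum response factor). No match overlapped a match of another motif.

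*Ace*: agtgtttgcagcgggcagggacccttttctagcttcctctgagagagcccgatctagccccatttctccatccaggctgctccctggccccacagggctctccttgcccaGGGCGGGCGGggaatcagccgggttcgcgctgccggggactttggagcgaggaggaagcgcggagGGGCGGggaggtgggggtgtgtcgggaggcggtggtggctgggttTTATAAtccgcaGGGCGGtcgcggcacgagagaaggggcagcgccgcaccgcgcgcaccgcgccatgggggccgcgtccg

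The *Ace* window held 4 matches of GGGCGG and 2 of TATAA, the latter lying on both strands over shared bases just upstream of the start. Among 32851 RefSeq windows of this length, 35.7% held GGGCGG and 24.9% held TATAA. A further *Ace* start, inside the gene, has the window chr11:105974939-105975238, with none of the 6 motifs.

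*Agt*, by contrast, did not separate the groups. It encodes angiotensinogen, the precursor from which renin and then the converting enzyme release angiotensin II. Its values were -0.05 and -0.77 after sham operation and -0.75 and -0.46 after injury. The sham libraries were farther apart than the group means, and the injury values lay between them. The difference was -0.20 (standard error 0.27, 95% interval -0.87 to 0.48, adjusted p = 0.671 from limma), and it was 0.16 without sham replicate 1. *Agt* lies on chromosome 8 from 127080434 to 127093606 (mm9, minus strand). Within each library the value of *Ace* minus that of *Agt* was 1.12 and 1.75 after sham operation and -0.18 and 0.07 after injury, a comparison to which any offset shared by a library's genes cannot contribute. It was higher in every sham library than in either injury library. This follows from the gap of 1.37 between the *Ace* groups, which is wider than the whole spread of *Agt*. This pair too was chosen after the values were seen, and it has no test.

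Of the other 8 measured genes of the renin-angiotensin list, 1 was called, as lower, where 3.67% of all genes were. *Enpep*, which encodes the aminopeptidase that turns angiotensin II into angiotensin III, was at 0.64 and 0.66 after sham operation and at -0.17 and -0.06 after injury. It fell by 0.77 (standard error 0.13, adjusted p = 0.0374 from limma). Its call was lost with the replicate block (adjusted p = 0.0603 from limma). It was also lost without sham replicate 1, sham replicate 2 or injury replicate 1, in fits that called fewer genes in general. The *Enpep* difference was then -0.78, -0.75 and -0.71. The uncalled genes included *Anpep*, an aminopeptidase that acts on angiotensin III (difference -0.21, adjusted p = 0.391 from limma). *Atp6ap2*, the prorenin receptor and a V-ATPase accessory protein, differed by 0.23 (adjusted p = 0.397 from limma). Without injury replicate 1 *Atp6ap2* was at 0.075, and without injury replicate 2 *Anpep* was at -0.10. *Cma1*, the mast cell chymase that can also make angiotensin II, differed by -0.22 (adjusted p = 0.721 from limma), with overlapping groups.

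In the endothelin system the ligand *Edn1*, the converting enzyme *Ece1* and both receptors had lower means after injury. The converting enzyme *Ece2* had a higher one. Of these 5 genes *Ece1* alone was called, as lower, where 3.67% of all genes were. *Edn1*, the precursor of endothelin 1, a strong constrictor made by endothelium, was at 0.04 and 0.95 after sham operation and at -0.58 and -0.31 after injury. Both injury libraries were below both sham libraries, but the sham libraries differed from each other by almost as much as the groups did. The difference was -0.94 (standard error 0.31, 95% interval -1.73 to -0.15) and did not pass (adjusted p = 0.122 from limma). Leaving out sham replicate 1 gave -1.39, and leaving out sham replicate 2 gave -0.49. *Edn1* lies on chromosome 13 from 42396639 to 42403358 (mm9, plus strand).

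*Ednrb* encodes the endothelin receptor that on endothelium clears the peptide and triggers nitric oxide release. Its values were 0.40 and 0.04 after sham operation and -0.31 and -0.04 after injury. The groups were separated by a gap of 0.08, smaller than the distance between replicates in either group. The difference was -0.40 (standard error 0.19, 95% interval -0.87 to 0.07, adjusted p = 0.228 from limma). *Ednrb* lies on chromosome 14 from 104213842 to 104243390 (mm9, minus strand). *Ednra*, the receptor that contracts smooth muscle, differed by -0.45 with overlapping groups (adjusted p = 0.287 from limma). As single libraries were left out, *Ednrb* ranged from -0.58 to -0.22, the latter without sham replicate 1, and *Ednra* from -0.71 without sham replicate 1 to -0.18 without sham replicate 2. Without injury replicate 1 they were at -0.26 and -0.23.

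*Ece1* encodes the protease that cuts big endothelin to the active peptide. It was at 0.59 and 0.86 after sham operation and at -0.47 and -0.32 after injury, and fell by 1.12 (standard error 0.16, adjusted p = 0.0291 from limma). The converting enzymes *Ace* and *Ece1* were therefore called lower and *Ece2* was not called, nor were the precursors *Agt* and *Edn1*. Whether enzymes and precursors differ in response was not tested. *Ece1* was not called without sham replicate 1, sham replicate 2 or injury replicate 1, in fits that called fewer genes in general. Its difference was then -1.25, -0.98 and -1.04. *Ece2*, a relative with a mainly neural pattern, differed by 0.17 (adjusted p = 0.444 from limma).

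The RefSeq window of *Edn1*, chr13:42301226-42301525 (GRCm38.p6, plus strand, 250 bases before the start and 50 from it), is shown because it was the only one of the 8 genes with a window to hold GATAA or ACGTG. The capitals mark a GATAA match on the reverse strand and an ACGTG match, also read from the reverse strand, both downstream of the start.

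*Edn1*: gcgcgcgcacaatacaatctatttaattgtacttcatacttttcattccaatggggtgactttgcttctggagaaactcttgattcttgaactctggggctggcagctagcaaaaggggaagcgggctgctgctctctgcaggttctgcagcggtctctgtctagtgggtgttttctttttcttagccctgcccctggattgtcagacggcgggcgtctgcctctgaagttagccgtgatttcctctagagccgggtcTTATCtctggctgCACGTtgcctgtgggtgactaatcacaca

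GATAA is in 25.4% and ACGTG in 19.6% of all windows of this length, so 1 of 8 is no more than the background. *Cth* has no window in the table.

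The signaling and the clearance receptor for natriuretic peptides had mean differences of opposite sign, and neither passed the test. *Npr1* encodes the receptor with guanylyl cyclase activity through which atrial and B-type natriuretic peptides relax vessels and drive lipolysis. It was at 0.47 and 0.65 after sham operation and at -0.20 and 0.19 after injury. The sham libraries were the higher pair without overlap. The difference was -0.57 (standard error 0.18, 95% interval -1.03 to -0.11, adjusted p = 0.117 from limma), and it was -0.37 without injury replicate 1.

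*Npr3* encodes the clearance receptor, which takes up and removes the same peptides and has no cyclase domain. It was at 0.29 and 0.09 after sham operation and at 0.65 and 0.56 after injury. Here the injury libraries were the higher pair without overlap, and their values lay close together. The difference was 0.42 (standard error 0.15, 95% interval 0.05 to 0.78, adjusted p = 0.137 from limma), and ranged from 0.32 to 0.52 as single libraries were left out.

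The value of *Npr3* minus that of *Npr1* in the same library was -0.18 and -0.57 after sham operation and 0.85 and 0.37 after injury. The mean of this within-library value was 0.98 higher after injury, and every injury library was above every sham library, which follows from the separation of each gene in opposite directions. The pair was set side by side after the values were seen, and the shift has no test. Of the 4 pairs computed in this way, *Ramp3* minus *Ramp2* also separated the groups, while *Edn1* minus *Ednrb* did not (-0.36 and 0.90 after sham operation, -0.27 and -0.28 after injury). *Npr1* lies on chromosome 3 from 90254513 to 90269788 and *Npr3* on chromosome 15 from 11769651 to 11835429 (mm9, both on the minus strand). The noncoding transcript *Gm16048* overlaps *Npr1* on the other strand and was not analysed here.

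Of the genes that act around cyclic GMP, a cyclase subunit and the kinase fell. *Gucy1b3*, the beta subunit of soluble guanylyl cyclase, the nitric oxide receptor, was at 0.68 and 0.75 after sham operation and at -0.42 and -0.20 after injury. It fell by 1.02 (standard error 0.15, adjusted p = 0.0294 from limma). *Prkg1*, the cyclic GMP-dependent kinase, fell by 0.94 (standard error 0.16, adjusted p = 0.0345 from limma). Both lost their calls without sham replicate 1, sham replicate 2 or injury replicate 1, in fits that called fewer genes in general. *Gucy1b3* was then at -1.06, -0.99 and -0.91, and *Prkg1* at -0.81, -1.08 and -1.01. The alpha subunit *Gucy1a3* and the phosphodiesterase *Pde5a*, which degrades cyclic GMP, had differences of -0.84 and -0.94 and did not pass (adjusted p = 0.0646 and 0.0750 from limma). Without injury replicate 2 they were at -1.10 and -1.28, and without injury replicate 1 at -0.59 and -0.60. Thus 2 of the 8 further genes of the natriuretic peptide and cyclic GMP list were called, both lower, where 3.67% of all genes were called lower. Of the 10 genes of that list, members included, 7 had both injury libraries below both sham libraries, where 30.3% of all genes did.

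In the adrenomedullin system 3 receptor genes fell, while the ligand gene and the other receptor partners did not pass. *Adm* encodes the precursor of a vasodilator peptide that also tightens the endothelial barrier. It was at 0.02 and -0.28 after sham operation and at -0.27 and -0.41 after injury. The groups overlapped narrowly. The difference was -0.21 (standard error 0.16, 95% interval -0.62 to 0.20, adjusted p = 0.449 from limma), and it was -0.059 without sham replicate 1, -0.36 without sham replicate 2 and -0.14 without injury replicate 2. *Adm* lies on chromosome 7 from 117771175 to 117773331 (mm9, plus strand).

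*Calcrl*, the receptor chain shared by adrenomedullin and calcitonin gene-related peptide (CGRP), was at 0.91 and 1.27 after sham operation and at -0.72 and -0.55 after injury. It fell by 1.73 (standard error 0.18, adjusted p = 0.0285 from limma), and 0.505% of all genes had a lower difference. *Ramp1*, the partner that makes *Calcrl* a CGRP receptor, fell by 1.05 (standard error 0.17, adjusted p = 0.0317 from limma). *Ackr3*, a scavenger receptor that also binds adrenomedullin, fell by 1.28 (standard error 0.21, adjusted p = 0.0328 from limma). Of the 5 measured genes of the list besides *Adm*, these 3 were called, all lower, where 3.67% of all genes were.

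*Ramp2*, the partner that makes *Calcrl* an adrenomedullin receptor, was at 0.40 and 0.66 after sham operation and at -0.47 and -0.05 after injury, a difference of -0.80 (adjusted p = 0.0702 from limma), and passed without injury replicate 2 (0.0299). *Ramp3*, the alternative partner, named after its values were seen, was at -0.03 and -0.28 after sham operation and at 0.61 and -0.07 after injury (difference 0.43, adjusted p = 0.322 from limma). It was the only gene of the list with a higher mean after injury, and its groups overlapped. *Calcrl*, *Ramp1* and *Ackr3* were not called without sham replicate 1 or sham replicate 2, nor *Ramp1* and *Ackr3* without injury replicate 1. Those fits called fewer genes in general. As single libraries were left out, *Calcrl* ranged from -1.91 to -1.55, *Ramp1* from -1.19 to -0.91 and *Ackr3* from -1.53 to -1.02.

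*Apln*, the precursor of apelin, a vasodilator and adipokine, had the highest difference of the 9 genes, and the widest interval. Its values were -0.76 and 0.07 after sham operation and 1.12 and 0.16 after injury. The groups were in order, but sham replicate 2 and injury replicate 2 were only 0.08 apart, and most of the difference came from sham replicate 1 and injury replicate 1. The difference was 0.98 (standard error 0.41, 95% interval -0.04 to 2.01, adjusted p = 0.181 from limma). Leaving out injury replicate 1 gave 0.50, and leaving out injury replicate 2 gave 1.47. The receptor gene *Aplnr* differed by 0.10 (adjusted p = 0.764 from limma), with overlapping groups. *Apln* lies on chromosome X from 45378323 to 45388030 (mm9, minus strand).

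The RefSeq window of *Apln*, chrX:48034804-48035103 (GRCm38.p6, minus strand, 250 bases before the start and 50 from it), is shown as that of the gene with the highest difference. The capitals mark its 1 match, of GGGCGG.

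*Apln*: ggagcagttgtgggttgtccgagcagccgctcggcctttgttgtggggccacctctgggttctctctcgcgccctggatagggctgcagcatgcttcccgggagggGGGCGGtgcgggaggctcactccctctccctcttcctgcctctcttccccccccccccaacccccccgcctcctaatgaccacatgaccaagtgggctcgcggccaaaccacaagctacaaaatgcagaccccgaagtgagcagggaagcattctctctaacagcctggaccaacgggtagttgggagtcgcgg

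Over the 8 genes with a window, GGGCGG was found in 4 (*Ace*, *Npr1*, *Adm* and *Apln*) and TATAA in 3 (*Agt*, *Ace* and *Adm*). These included the gene that fell, genes that did not pass and genes with means in either direction. The AP-1 motif and the CArG box were found in 0 of 8, where 5.20% and 1.63% of all windows hold them.

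*Cth* encodes cystathionine gamma-lyase, the enzyme to which most vascular hydrogen sulfide is credited. It was at 0.24 and 0.33 after sham operation and at -0.10 and -0.01 after injury. Replicates were closer together than for any other of the 9 genes when both groups are considered, and the groups did not overlap. The difference was -0.34 (standard error 0.14, 95% interval -0.68 to -0.0014), where the median absolute difference over all genes was 0.25, and it did not pass (adjusted p = 0.168 from limma). *Cth* lies on chromosome 3 from 157557212 to 157588041 (mm9, minus strand).

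The other enzymes of sulfide production also had lower means and did not pass. *Cbs*, cystathionine beta-synthase, differed by -0.69 (adjusted p = 0.250 from limma) and *Mpst*, mercaptopyruvate sulfurtransferase, by -0.54 (adjusted p = 0.136 from limma). The mitochondrial side of sulfide disposal was mixed. *Tst*, a sulfurtransferase, differed by -0.46 with overlapping groups (adjusted p = 0.321 from limma), and *Ethe1*, a persulfide dioxygenase, by 0.39 (adjusted p = 0.177 from limma). By limma 0 of the 7 sulfide genes were called, where 3.67% and 3.76% of all genes were called lower and higher. An unadjusted p under 0.05 was reached by 3, where 29.5% of all genes reached it. Of these *Cth* and *Mpst* were lower, and *Suox*, named after its values were seen, was higher by 0.38. Injury replicate 1 carried much of the differences of *Cbs*, *Mpst* and *Tst*. Without it *Cbs* was at -0.18, *Mpst* at -0.32 and *Tst* at -0.099. Without injury replicate 2 *Cbs* was at -1.21, *Mpst* at -0.77 and *Tst* at -0.82.

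**Figure D2:**
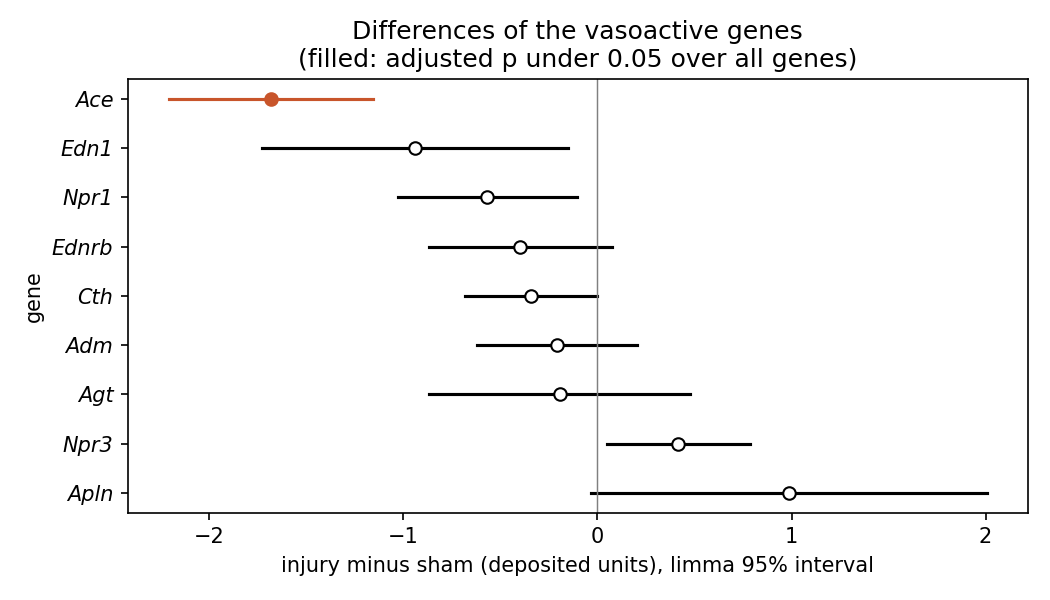
Difference between injury and sham for the 9 vasoactive genes (horizontal axis, deposited units; lines, 95% limma intervals), ordered by size, with a filled orange point for an adjusted p under 0.05. The *Ace* interval, from -2.21 to -1.16, lies farthest from 0, and that of *Apln*, from -0.04 to 2.01, is the widest.

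Nitric oxide genes, which act through the same cyclic GMP, were read beside the members. *Nos3*, endothelial nitric oxide synthase, was at 1.10 and 1.03 after sham operation and at -0.40 and -0.23 after injury. It fell by 1.38 (standard error 0.14, adjusted p = 0.0285 from limma) and was the only gene called of the 10 measured, where 3.67% of all genes were called lower. *Nos3* overlaps *Atg9b* on the opposite strand, looked up after the values were seen, which fell by 0.98 (adjusted p = 0.0397 from limma). These rows too may not be independent. *Ece1* and *Prkg1* also overlap genes on the opposite strand, and the position of *Ackr3* was not analysed here. *Nos2*, the inducible synthase, was at 0.37 and 0.29 after sham operation and at 1.46 and 0.65 after injury (difference 0.72, adjusted p = 0.159 from limma). *Ddah1* and *Ddah2*, which degrade an inhibitor of nitric oxide synthases, differed by -0.65 and -0.58 (adjusted p = 0.0933 and 0.110 from limma). *Nos3* was not called without sham replicate 1 or sham replicate 2, in fits that called fewer genes in general, and was then at -1.35 and -1.41. *Nos2* was at 1.13 without injury replicate 2 and at 0.32 without injury replicate 1. Without sham replicate 2 *Ddah1* was at -0.42. None of the 7 listed kinin genes was analysed here.

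Over the 7 systems together, 41 genes besides the 9 members were measured. The lists were chosen with earlier results of these data known, so their counts are a description. Of these 8 were called lower (*Enpep*, *Ece1*, *Gucy1b3*, *Prkg1*, *Calcrl*, *Ackr3*, *Ramp1* and *Nos3*) and 0 higher by limma, where 3.67% and 3.76% of all genes were called lower and higher. At an unadjusted p under 0.05 there were 14 lower and 3 higher, the latter being *Furin*, *Suox* and *Nos2*, named after their values were seen. Both injury libraries lay below both sham libraries in 19 of the 41 and above in 7, where 30.3% and 31.6% of all genes did. The median difference was -0.22. Fewer of these genes were called without sham replicate 1, sham replicate 2 or injury replicate 1, and more without injury replicate 2. The number of calls over all genes moved the same way.

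**Figure D3:**
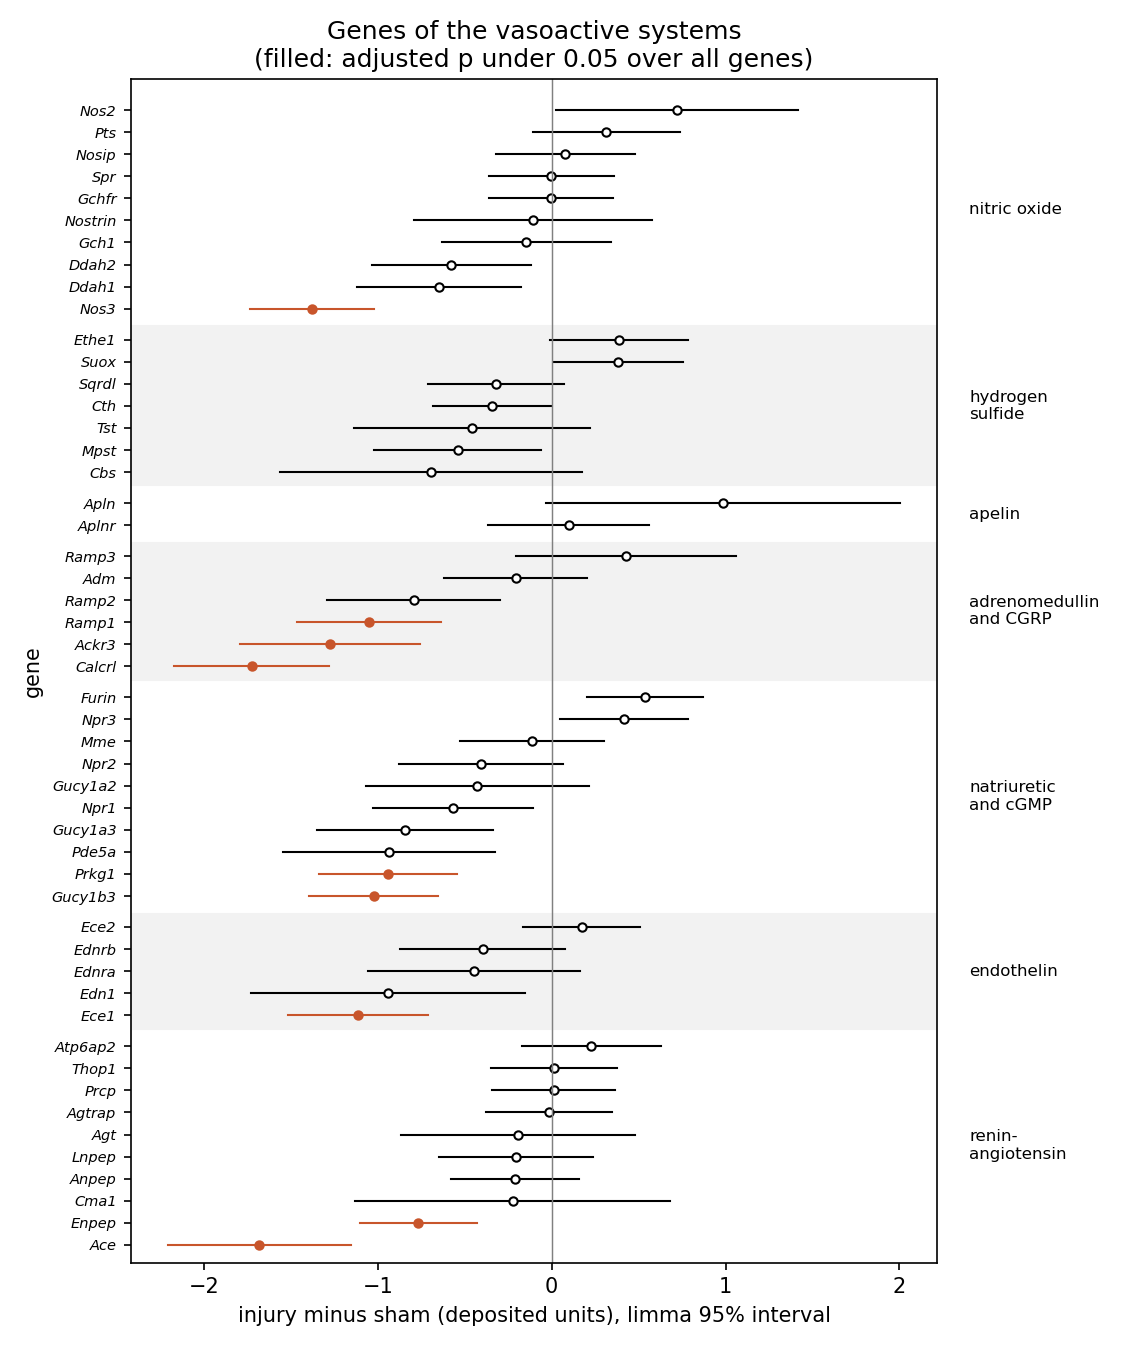
Difference between injury and sham for every measured gene of the 7 vasoactive systems (horizontal axis, deposited units; lines, 95% limma intervals; filled orange points, adjusted p under 0.05). All 9 filled points, *Ace* among them, lie to the left of 0, and they fall in 5 of the 7 systems, with none for apelin and hydrogen sulfide.

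Several of these genes are known to be used by endothelium or smooth muscle, and markers of both had lower means in the injury libraries. All 12 endothelial markers had lower means, 3 were called (*Vwf*, *Eng* and *Pecam1*), where 3.67% of all genes were called lower, and the median difference was -0.65. The list summed to 6.45 and 7.85 deposited units after sham operation and to -2.86 and -1.54 after injury. The marker differences ran from -2.40 for *Vwf* and -1.14 for *Eng*, the next lowest, to -0.20 for *Kdr*, named here as the end of the range. The differences of *Ace* (-1.68), *Calcrl* (-1.73) and *Nos3* (-1.38) were lower than those of all these markers but *Vwf*. Those of *Ece1* (-1.12) and *Edn1* (-0.94) lay between *Eng* and *Kdr*. All of these lay within the range of the smooth muscle and pericyte markers, from -2.52 to -0.10.

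All 12 markers of smooth muscle and pericytes had lower means too, with 4 called (*Myh11*, *Cnn1*, *Acta2* and *Tagln*), a median of -1.13 and sums of 12.8 and 8.41 after sham operation against -8.53 and -0.31 after injury. Of the 12 adipocyte markers 7 had lower and 5 higher means, and *Plin1* alone was called, as lower. Against these 4 of 12 and 1 of 12, 3.67% of all genes were called lower. Their sums were 2.65 and 4.10 after sham operation and -1.78 and 2.84 after injury. Which marker values are near 0 in abundance is unknown on this scale. The part of these cell types in the differences of *Ace* and the other vasoactive genes was not tested.

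**Figure D4:**
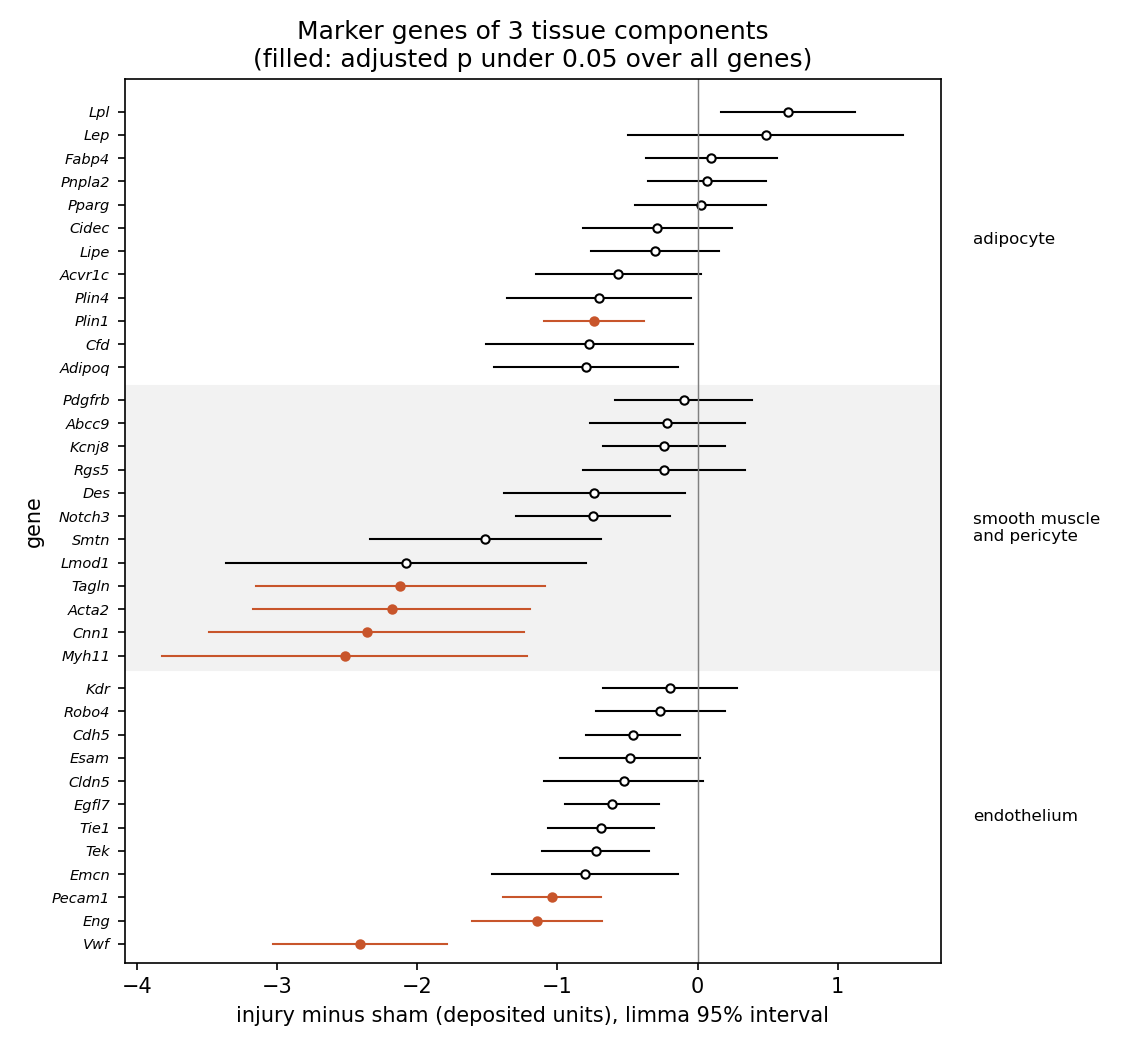
Difference between injury and sham for markers of endothelium, smooth muscle with pericytes, and adipocytes (horizontal axis, deposited units; lines, 95% limma intervals; filled orange points, adjusted p under 0.05). All 24 vessel wall markers lie left of 0, from -2.52 to -0.10, and the adipocyte markers lie on both sides.

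Macrophage, monocyte and neutrophil markers had higher means after injury, where 3.76% of all genes were called higher and 3.67% lower. Of 12 macrophage and monocyte markers 6 were called higher, with sums of -14.0 and -11.7 after sham operation and 7.91 and 0.44 after injury, and of 6 neutrophil markers 2 were. Brown adipocyte markers were called higher in 7 of 10. Lower calls were made in 5 of 12 fibroblast, 2 of 5 lymphatic and 2 of 7 Schwann cell markers, and by limma no call in 6 mast cell, 7 skeletal muscle and 8 proliferation markers, of which 0, 4 and 1 had an unadjusted p under 0.05, where 29.5% of all genes did. Over all marker lists 32 genes were called, 17 lower and 15 higher. With the replicate block 20 were called, 8 lower and 12 higher. The count was lower without sham replicate 1, sham replicate 2 or injury replicate 1 and higher without injury replicate 2, as was that over all genes.

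The genes with the pattern most like that of *Ace* were found by the root mean square distance over the 4 libraries, after each gene's own mean was taken off. Among all 12661 genes without the members these were *Dtna* (distance 0.04, difference -1.71), *Wnk2* (0.07, -1.69) and *Cmah* (0.07, -1.59). With only 4 libraries in 2 groups many genes share such a pattern, and the likeness is a description.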

How the data were processed

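Bulk RNA-seq of tissue around the femoral artery was measured in 4 libraries, 2 per group, prepared with a strand-keeping mRNA kit. Per the labels and methods, reads were checked with FastQC 0.11.8, cut with cutadapt 1.18 and Trimmomatic 0.39, aligned to mm9 with STAR 2.6.0a, counted with featureCounts and tested with DESeq2 1.28.0 in R 3.6.0. The values the authors deposited are signed scores, and how they were made from counts is not given in the sources used here. Depth is unknown, so no detection limit is given.

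The columns were tested as deposited, without filter or pseudocount. limma 3.58.1 in R 4.3.3 (lmFit, eBayes, group as the only term) was fitted to all 12661 genes with Benjamini-Hochberg adjustment. With 2 residual degrees of freedom per gene, 3.48 prior degrees were added. The members and gene lists were chosen with earlier results of these data known. Named genes were all members, up to 4 per system list (called genes, then the largest differences), up to 4 called per marker list and the 3 nearest patterns to a called member. Others are marked where they occur. The fit was tested on simulated data. No member shared its values with another row. Positions come from the GENCODE annotation of NCBIM37 (mm9). Promoter windows come from RefSeq (GRCm38.p6) and matched 8 of 9 genes. The builds are not interchangeable. Alternatives were a replicate block, each library left out, quantile normalization, scaled columns, a robust or trended variance prior, identical rows counted once and a threshold of 0.1. Python 3.11.15, pandas 2.3.3, numpy 2.4.6 and matplotlib 3.10.9 were used.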

Additional observations from a re-analysis of the deposited data

How the results depend on the processing

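In the scaling alternatives, the variance alternatives, the removal of identical rows and the replicate block, *Ace* kept its call and no member gained or lost one. Among the differences recomputed there, those of the members and of the system genes named by the rule, none changed direction. The number of genes called was 941, and 2317 at a threshold of 0.1, where 13 system genes besides the members and 54 marker genes were called. With each library left out, 0 to 1790 genes, 0 to 1 members, 0 to 15 system genes and 0 to 53 marker genes were called. The direction turned in *Agt* (-0.56 to 0.16), *Cma1* (-0.63 to 0.18) and *Aplnr* (-0.091 to 0.29). A fit with a library left out has a lone sample in one arm, which is assumed to vary like the other group. With the replicate block 684 genes were called, 579 of them also without it, together with 1 member and 20 marker genes, and 7 of the 8 system genes called. The replicate numbers were not taken as pairs, since the deviations of same-numbered libraries had a correlation of -0.094 over genes. DESeq2 and edgeR were not run because the values are not counts. Depth could not limit wording, as it is unknown.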
